A study of Arabidopsis thaliana with 4 samples.

Results

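The genes described here are those carried by the plastid genome of Arabidopsis thaliana, grouped by what their products do. A gene was included where an array probe set, the group of short probes that reports 1 transcript, was annotated to exactly 1 gene and that gene lay on the plastid genome. This gave 69 genes, all protein-coding and each with 1 such probe set, among 22746 probe sets tested. The plastid genome holds 78 different protein-coding symbols in the reference gene table, so 9 are not among the genes described, 7 of them because their probe sets were shared by copies of the gene. By function 20 of the 69 belonged to the photosystems, 6 to the cytochrome b6f complex, 6 to ATP synthase, 10 to the NDH complex, 15 to the plastid ribosome, 4 to the plastid-encoded RNA polymerase and 8 to other processes. RNA came from whole seedlings of the strain Col, 14 days old, and every seedling carried the max3 mutation. MAX3 encodes a carotenoid-cleaving enzyme of the pathway to strigolactones, plant hormones that restrain shoot branching, so the mutants lack these hormones. The GR24 group received GR24, a strigolactone analogue made by synthesis, at 1 µM for 90 min, and the mock group received the solvent DMSO for the same time. Each group had 2 arrays, numbered replicate 1 and replicate 2, and each number stood for an analysis that started from its own seedling preparation.

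The plastid genome is a remnant of a cyanobacterial genome and encodes core subunits of the photosynthetic membrane complexes together with part of the machinery that expresses them. Most of its genes are transcribed in multi-gene units, by a bacterial-type polymerase whose core subunits it encodes itself and by a polymerase imported from the cytosol, and the long transcripts are then cut, spliced and edited. In green tissue much of the control of transcript level lies in processing and stability as well as in transcription. The design asks whether added GR24 alters transcript levels in seedlings that cannot make strigolactones of their own.

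All values are log2 signals, in which a difference of 1 is a doubling. A signal depends on the probes, so levels of different genes are not set against each other. Over all probe sets tested the median log2 value of an array lay between 7.03 and 7.06. The labelled tissue could be checked only in part, since 2 of 20 shoot and leaf markers and 1 of 15 root markers had a named probe set. The antenna gene LHCB4.1 had values of 13.02 in mock and 13.12 in GR24 of replicate 1, and of 13.37 and 13.36 in replicate 2. PRK, a Calvin cycle kinase, had 11.39 and 11.32 in replicate 1 and 11.92 and 11.73 in replicate 2, and EXPA7, a root hair expansin, 4.84 and 4.79 in replicate 1 and 5.58 and 5.38 in replicate 2. All 3 markers were higher in replicate 2 in both treatments. The level of MAX3 is not analysed here. Control probe sets at the 3′ and 5′ ends of actin differed between the replicate numbers. The 3′ signal exceeded the 5′ signal by 1.40 in mock and 1.26 in GR24 of replicate 1, and by 1.04 in mock and 1.14 in GR24 of replicate 2. The actin gap was thus widest in mock replicate 1 and narrowest in mock replicate 2, an order that not all control pairs shared. For GAPDH it was 0.19 and 0.07 in mock and GR24 of replicate 1 and -0.01 and -0.06 in replicate 2, and for ubiquitin 0.27 and 0.24 in replicate 1 and 0.07 and 0.16 in replicate 2. An older pair for each transcript gave wider gaps, widest in mock replicate 1 for actin (3.12) and GAPDH (1.19). The older GAPDH gap was narrowest in GR24 replicate 2 (0.55). The older ubiquitin gap was widest in GR24 replicate 1 (1.37), next to 1.36 in mock replicate 1. Mock replicate 1 thus had the widest gap in every control pair except the older ubiquitin pair. The part of these gaps in the results below was not tested.

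No plastid-encoded gene passed the test of GR24 against mock. In limma without pairing 0 of the 69 had an adjusted p under 0.05, where 0% of all probe sets did, and 0 had an unadjusted p under 0.05, where 1.54% did. With the replicate number as a block the count was again 0, where 1.24% of all probe sets passed with limma's default prior and 0.303% with a prior fitted by likelihood. In those fits 15 and 7 of the 69 (21.7% and 10.1%) had an unadjusted p under 0.05, where 8.46% and 7.47% of all probe sets did. The lowest adjusted p was that of psbZ, a small photosystem II subunit (0.217 in limma with the block and default prior). The median log2 difference over the 69 genes, averaged over both replicate numbers, was -0.06. It was 0.07 without mock replicate 2 and 0.04 without GR24 replicate 2, so its sign changed with single arrays. Those fits had no pairing, so the difference between the replicate numbers entered their medians too. Both GR24 arrays lay below both mock arrays for 14 genes, which is 20.3% of the members where 10.2% of all probe sets did so, and above them for 1, where 12.9% did.

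With so few calls over all probe sets, the lack of calls says little about these genes. For most of them the GR24 minus mock difference had opposite signs in the 2 replicate numbers. The median GR24 minus mock difference was 0.17 in replicate 1 and -0.27 in replicate 2, against 0.02 and 0.00 over all probe sets. In replicate 1 and replicate 2 the differences ran from -0.29 to 0.83 and from -1.01 to 0.14. For 45 genes, 65.2% of the members, GR24 was above mock in replicate 1 and below it in replicate 2, where 25.2% of all probe sets showed this order. The reverse order was seen for 3 genes, rps14, ndhF and rpl32, where 22.6% of all probe sets had it. Together, 48 of the 69 (69.6%) had opposite signs, where 47.8% of all probe sets did. GR24 was below mock in both replicate numbers for 17 genes (24.6%), where this held for 23.3% of all probe sets. It was above mock in both for 4 (5.8%), where this held for 28.7%. Each difference is 1 array minus 1 array, so neither has an error of its own. In RNA from whole seedlings, fewer plastid-bearing cells and less plastid RNA per cell cannot be told apart. The label protocol does not state how labelling was primed, which bears on plastid transcripts, since these lack long poly(A) tails. The part of the labelling in these values was not tested.

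**Figure D1:**
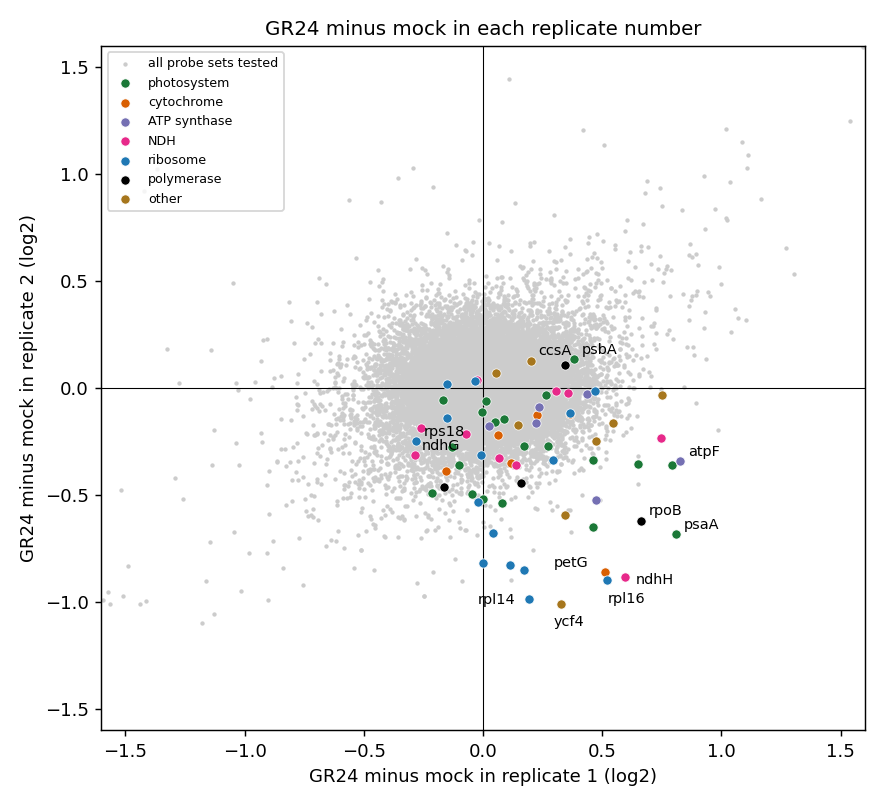
GR24 minus mock (log2) in replicate 1 on the horizontal axis and in replicate 2 on the vertical axis, with 1 point per probe set, all tested probe sets in grey and the 69 plastid-encoded genes coloured by function. Axes end at 1.6 in either direction, which leaves out 20 grey points and no plastid gene, and 45 plastid genes lie in the lower right quadrant.

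The difference in replicate 2 minus that in replicate 1 is called the shift here. With 1 array per treatment and replicate number it takes up all degrees of freedom and has no test. The median shift of the plastid-encoded genes was -0.45, against -0.02 over all probe sets. The shift was below 0 for 61 genes (88.4%), where it was for 53.5% of all probe sets. It was -0.5 or lower for 29 genes, 42% of the members where 2.02% of all probe sets reached this, and 0.5 or higher for 0, where 2.53% did. The size of 0.5 was chosen after the values had been seen. When all 22746 probe sets were ordered by shift, psaA had the lowest value, and plastid-encoded genes made up 8 of the lowest 10 and 14 of the lowest 20. The shift was -0.63 in the median of the 23 genes with the lowest signals, -0.61 in the middle 23 and -0.28 in the 23 with the highest signals, so it was smaller among the bright probe sets.

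The photosystems were the largest group. Photosystem I takes electrons from plastocyanin and passes them to ferredoxin, and photosystem II splits water. All 5 photosystem I genes lay above mock in replicate 1 and below it in replicate 2. psaA, which encodes a reaction-centre protein of photosystem I, had log2 values of 10.77 in mock and 11.58 in GR24 of replicate 1, and of 11.64 in mock and 10.95 in GR24 of replicate 2. The mock arrays of psaA were thus both its lowest and its highest, its GR24 differences were 0.81 and -0.68, and its shift was -1.50. psaC, the subunit with the terminal iron-sulfur centres, differed by 0.46 and -0.34. psaB, the partner of psaA in the reaction centre, differed by only 0.09 and -0.15.

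Among the 15 photosystem II genes 7 had the order above then below mock, 7 were below mock in both replicate numbers and 1, psbA, was above in both. psbA encodes D1, the reaction-centre protein that is damaged by light and replaced throughout the day. Its values were 12.19 in mock and 12.58 in GR24 of replicate 1, and 11.21 in mock and 11.35 in GR24 of replicate 2. Both replicate 2 arrays of psbA lay below both replicate 1 arrays by more than either treatment difference. psbD and psbC encode D2, the partner of D1, and the inner antenna CP43. psbD differed by 0.46 and -0.65, and psbC by 0.79 and -0.36. psbB, the inner antenna CP47, differed by 0.65 and -0.35. psbZ lay below mock in both, with differences of -0.21 and -0.49, and its GR24 arrays at 10.40 and 10.44 did not overlap its mock arrays at 10.62 and 10.93. psbM, a small subunit with a bright signal between 13.85 and 14.06, differed by -0.01 and -0.11. psbN, which serves photosystem assembly and is encoded on the strand opposite to its neighbours, differed by -0.10 and -0.36.

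The cytochrome b6f complex links the photosystems and pumps protons. Of its 6 genes 5 were above mock in replicate 1 and below it in replicate 2. petG, a small subunit, had values of 6.92 in mock and 7.43 in GR24 of replicate 1, and of 8.35 in mock and 7.48 in GR24 of replicate 2. The differences were 0.51 and -0.86, and mock replicate 2 stood 1.43 above the other mock array. petA, which encodes cytochrome f, was the exception and lay below mock in both, with differences of -0.16 and -0.39. petD, subunit IV of the complex, differed by 0.36 and -0.12, and petB, cytochrome b6, by 0.06 and -0.22.

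All 6 ATP synthase genes had the order above then below mock. atpF, a stalk subunit, had values of 9.71 in mock and 10.54 in GR24 of replicate 1, and of 10.53 in mock and 10.19 in GR24 of replicate 2. For atpF mock replicate 1 was the low array, 0.81 below mock replicate 2, and the differences were 0.83 and -0.34. atpI, the membrane subunit beside the rotor, differed by 0.47 and -0.52, but its signal was dim, between 4.55 and 5.19. The catalytic-head genes differed less, atpA by 0.44 and -0.03 and atpB by 0.22 and -0.16. atpE differed by 0.02 and -0.18.

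The NDH complex carries cyclic electron flow around photosystem I. Of its 10 genes 6 had the order above then below mock and 3 were below in both. ndhH, a subunit of the arm that faces the stroma, had values of 6.44 in mock and 7.03 in GR24 of replicate 1, and of 7.79 in mock and 6.91 in GR24 of replicate 2. The differences were 0.60 and -0.88, and replicate 2 differed from replicate 1 by 1.35 in mock and by -0.13 in GR24. ndhK differed by 0.75 and -0.23. ndhG, a membrane-arm subunit, lay below mock with differences of -0.29 and -0.31. In the deposited values it was the 1 gene that lay 0.25 or more from mock on the same side in both. The share of all probe sets that did so is not given here, so this count has no background. With repeated quantile normalization rps18 (-0.31 and -0.26) and psbZ (-0.25 and -0.49) did so too. ndhF had a mean signal of 3.45, under the 25th percentile of all probe sets, and its differences were -0.02 and 0.04.

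The plastid ribosome translates the plastid messages. Of its 15 measured protein genes 8 had the order above then below mock, and 5 were below in both. The order was seen for 5 of 7 large-subunit and 3 of 8 small-subunit genes, and 4 of the latter were below mock in both. rpl16 had values of 7.69 in mock and 8.21 in GR24 of replicate 1, and of 8.73 in mock and 7.83 in GR24 of replicate 2. rpl14 had values of 7.50 in mock and 7.69 in GR24 of replicate 1, and of 8.75 in mock and 7.76 in GR24 of replicate 2. In rpl14 3 arrays lay together and mock replicate 2 stood apart above them. rpl36 differed by 0.17 and -0.85. rps18 lay below mock in both, with differences of -0.28 and -0.25, the latter just short of 0.25 in size before rounding. Of the others, rps14 differed by -0.15 and 0.02, and rpl32 by -0.03 and 0.03. rpl33 differed by -0.01 and -0.31.

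The polymerase core genes rpoA, rpoB, rpoC1 and rpoC2 encode the subunits of the bacterial-type enzyme, and 2 of the 4 had the order above then below mock. rpoB had values of 4.66 in mock and 5.33 in GR24 of replicate 1, and of 5.35 in mock and 4.73 in GR24 of replicate 2, close to the 25th percentile of all probe sets at 4.72. rpoA lay below mock in both, with differences of -0.16 and -0.46, and rpoC2 above in both, with differences of 0.34 and 0.11. The 8 other genes had the lowest group median of the shift, -0.72. rbcL, the large subunit of the carbon-fixing enzyme Rubisco, had values of 8.78 in mock and 9.33 in GR24 of replicate 1, and of 9.32 in mock and 9.15 in GR24 of replicate 2. ycf4, an assembly factor of photosystem I, differed by 0.33 and -1.01, the latter being the lowest difference of any member in replicate 2. ycf3, another such factor, differed by 0.47 and -0.25, and accD, a subunit of the acetyl-CoA carboxylase of fatty acid synthesis, by 0.75 and -0.03. matK, an intron maturase, differed by 0.05 and 0.07. ccsA, which serves haem attachment to cytochromes, differed by 0.20 and 0.13 and was the 1 gene whose GR24 arrays both lay above both mock arrays.

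**Figure D2:**
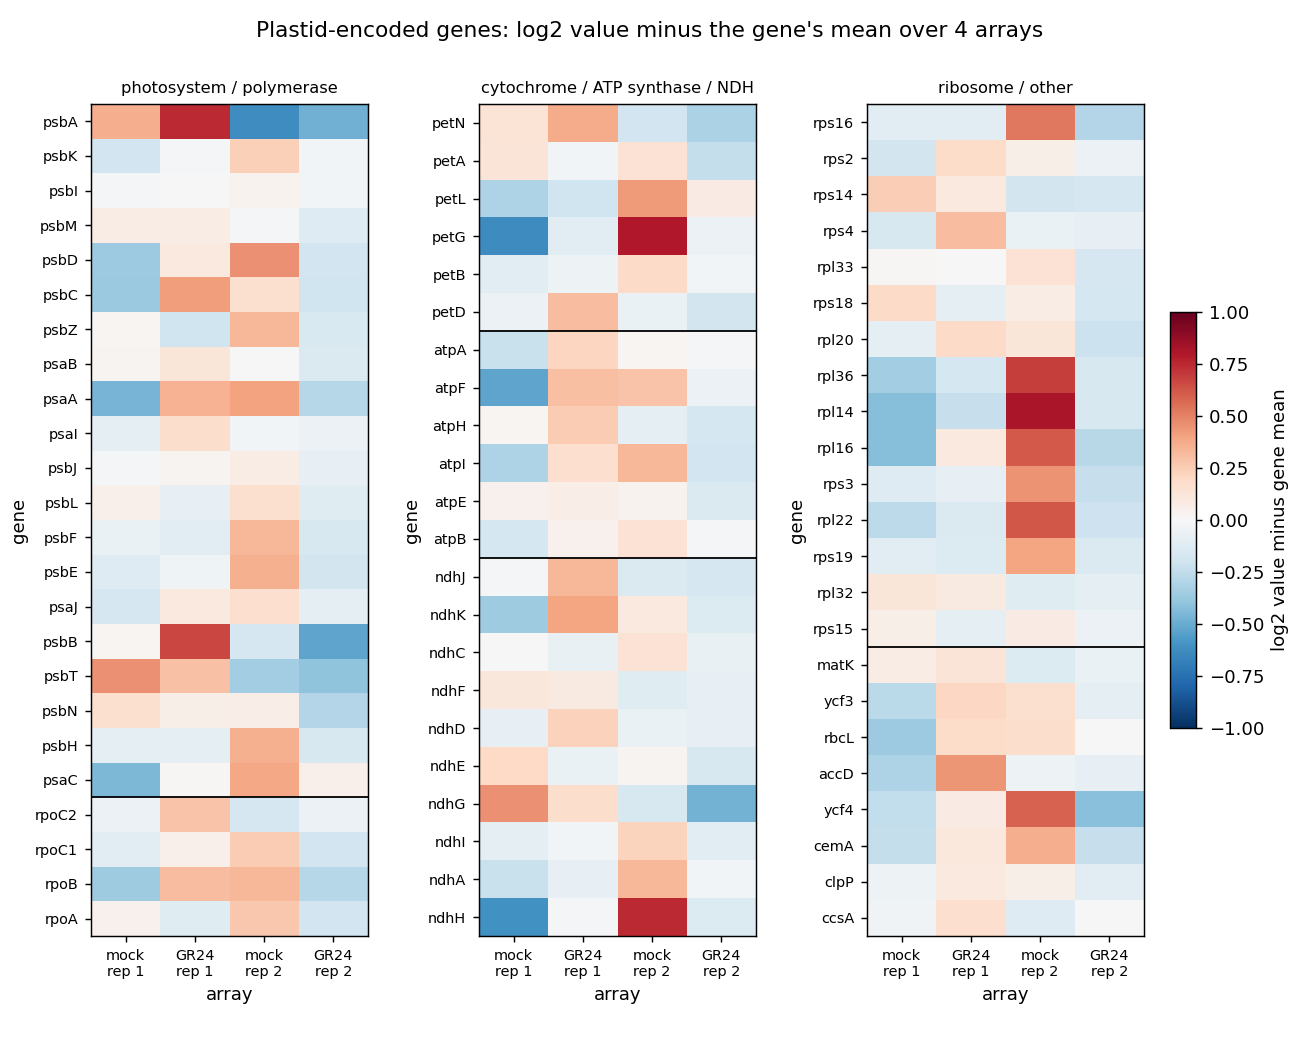
Each row is a plastid-encoded gene and each column an array, and colour gives the log2 value minus the mean of that gene over its 4 arrays, on a scale from -1 to 1. Mock replicate 2 was the highest array for 36 of the 69 genes, GR24 replicate 2 the lowest for 32 and mock replicate 1 the lowest for 28.

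The arrays did not share these positions evenly. Mock replicate 2 was the highest of the 4 arrays for 36 genes (52.2%), where it was for 26% of all probe sets. GR24 replicate 1 was the highest for 24 genes (34.8%), where it was for 26.8%. GR24 replicate 2 was the highest for 0 genes, where it was for 18% of all probe sets. It was the lowest for 32 (46.4%), where it was for 20.6%, and mock replicate 1 for 28 (40.6%), where it was for 30.4%. Mock replicate 2 was the lowest for 7 (10.1%), where it was for 30.9%. The median SD over the 4 arrays was 0.21 for the plastid-encoded genes and 0.13 for all probe sets.

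Transcription units, listed from textbook knowledge, held 57 of the 69 genes in 14 units of more than 1 member. The unit that runs from rpl23 to rpoA had the lowest median difference of these units in replicate 2, at -0.83. All 7 of its measured members lay below mock there, from -0.98 to -0.46, while in replicate 1 they ran from -0.16 to 0.52. In mock all 7 were higher in replicate 2 than in replicate 1, by 0.23 to 1.24, whereas the GR24 arrays differed by -0.37 to 0.07. The unit from rps2 to atpA had all 5 members above mock in replicate 1, with differences from 0.24 to 0.83, and below it in replicate 2, from -0.52 to -0.03. The 4 members of the psbE unit, which encodes both chains of cytochrome b559 together with psbL and psbJ, had small differences in replicate 1, from -0.13 to 0.08, and ran from -0.54 to -0.16 in replicate 2. The psaA, psaC to rps15, petL and psbB units held shifts of both signs, and in the other units the shift of every measured member was below 0. In the unit of psaA, psaB and rps14 the shift ran from -1.50 to 0.17. In the unit from psaC to rps15 it ran from -1.48 in ndhH to 0.07 in ndhE, in the petL unit from -1.37 in petG to 0.03 in rps18, and in the psbB unit psbT, at 0.11, was the only member above 0. Over the 68 pairs of neighbours along the genome the median absolute difference in shift was 0.37, and over all 2346 pairs of members it was 0.40. Values of neighbours were thus only slightly closer, and this difference was not tested. The neighbours include pairs across unit borders, and pairs within a unit were not taken separately.

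**Figure D3:**
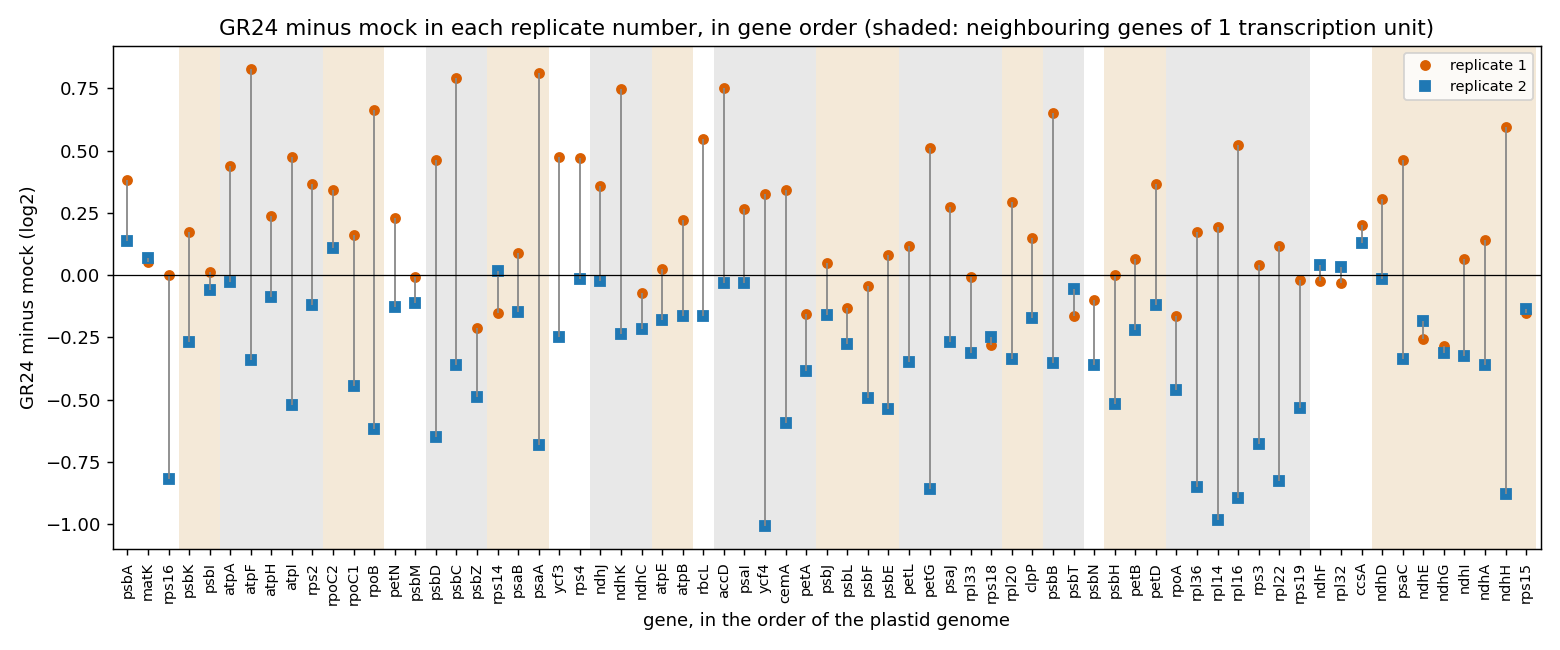
GR24 minus mock (log2) of each plastid-encoded gene in replicate 1 (circles) and replicate 2 (squares), joined by a line, with the genes in the order of the plastid genome and shaded blocks for neighbours of 1 transcription unit. The squares lie below the circles for 61 of the 69 genes, and the longest lines are those of psaA, ndhH, rpl16 and petG.

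The replicate numbers were also compared directly, with treatment as a block. In this limma fit, which used a prior variance fitted by likelihood, 6 of the 69 genes passed (8.7%), where 16.7% of all probe sets did. In replicate 2, 5 were lower, where 8.59% of all probe sets were, and 1 was higher, where 8.14% were. psbA fell 2.15-fold, from a mean of 12.38 in replicate 1 to 11.28 in replicate 2 (log2 difference -1.10 ± 0.11, moderated SE, n = 2 pairs, adjusted p = 0.000982 in limma). psbT, a small photosystem II subunit, fell by 0.75 ± 0.10 (adjusted p = 0.00311 in limma) and ndhG by 0.63 ± 0.10 (adjusted p = 0.0057). petN, the smallest subunit of the cytochrome complex, fell by 0.51 ± 0.12 (adjusted p = 0.022 in limma), and its difference was -0.33 without either GR24 array and -0.68 without either mock array. psbB fell by 0.69 ± 0.20 (adjusted p = 0.0455 in limma), but the difference was -0.19 in mock and -1.20 in GR24, so without either mock array it was -1.20 and without either GR24 array -0.19. The psbB call was also lost with repeated quantile normalization, an offset of 16 and trend and robust moderation. petL, another small cytochrome b6f subunit, was the 1 gene that rose, by 0.51 ± 0.13 (adjusted p = 0.0295 in limma), with values of 9.33 and 9.45 in replicate 1 and of 10.07 and 9.72 in replicate 2. Its difference was 0.74 without either GR24 array and 0.27 without either mock array. The 3 tissue markers given above were also higher in replicate 2, and their part in this comparison was not tested. The moderated SE rests on 1 residual and 7.62 prior degrees of freedom, so it reflects mainly the spread shared by all probe sets. The 1 residual comes from the shift, whose median was -0.45 in these genes against -0.02 over all probe sets. The SE may thus be too small for them. Each replicate number stood for 1 preparation, so these p-values do not cover the spread between preparations. With limma's default prior 12 of the 69 passed, 6 in each direction, where 21.8% of all probe sets did.

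Most plastid-encoded genes did not move together between the replicate numbers in the 2 treatments. In mock 49 of the 69 were higher in replicate 2 (median difference 0.25), where 10776 of all 22746 probe sets were. In GR24 60 of the 69 were lower (median difference -0.20), where 12414 of all 22746 probe sets were. For 40 genes mock was higher and GR24 lower in replicate 2, where 15.2% of all probe sets showed this. For comparison, the medians over all probe sets were -0.02 in mock and -0.02 in GR24. These are the same 4 arrays as in the comparison within replicate numbers and give no further evidence for the shift.

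**Figure D4:**
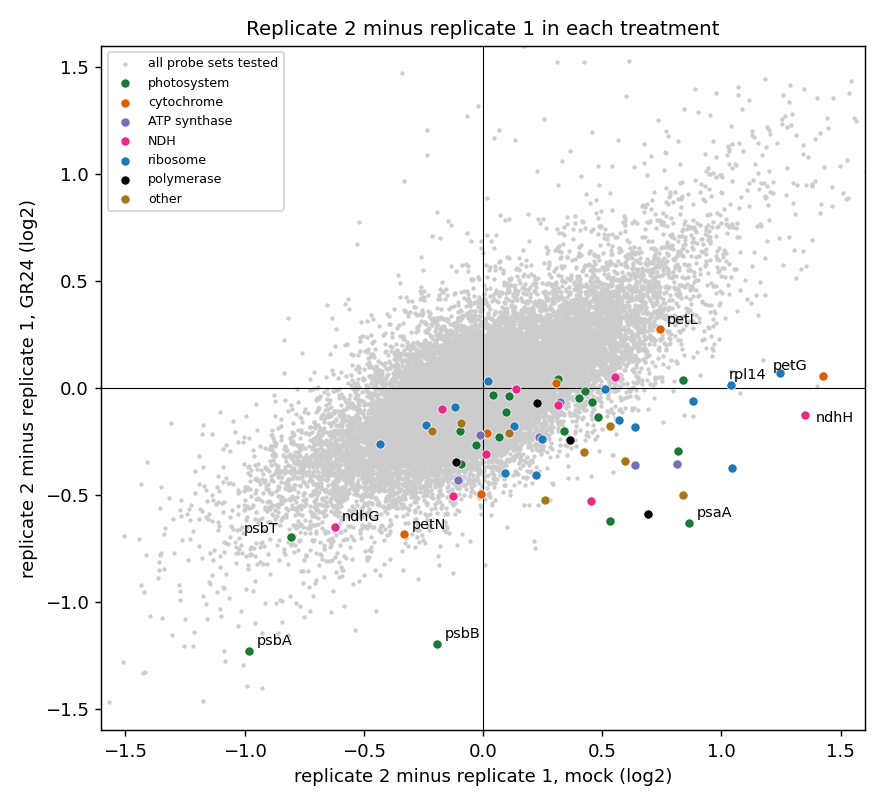
Replicate 2 minus replicate 1 (log2) in mock on the horizontal axis and in GR24 on the vertical axis, with all tested probe sets in grey and the 69 plastid-encoded genes coloured by function. Axes end at 1.6, which leaves out 50 grey points and no plastid gene, and psbA, psbT, ndhG and petN lie among probe sets that are lower in replicate 2 in both treatments.

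For comparison with genes of the other genomes, the 8 probe sets named for nuclear-encoded photosystem and antenna proteins had a median shift of -0.04, from -0.18 to 0.26. The 18 probe sets named for mitochondrial genes, several of which stand for the same gene, had a median shift of -0.11, from -0.78 to 0.38, with 13 below 0 and 2 at -0.5 or lower. Their median GR24 minus mock differences were -0.14 in replicate 1 and -0.23 in replicate 2. Mock replicate 2 was the highest array for 9 of 18, and GR24 replicate 2 the lowest for 9 and the highest for 0. These positions were near those of the plastid-encoded genes, but those of the replicate 1 arrays were not. Mock replicate 1 was the highest for 7 of 18 and the lowest for 3, against 9 and 28 of the 69 plastid-encoded genes. GR24 replicate 1 was the highest for 2 of 18 and the lowest for 5, against 24 and 2 of the 69. Of these 18, 11 were below mock in both replicate numbers and 3 had the order above then below mock. The difference between the plastid-encoded genes and these sets was not tested. No probe set carried the name of a plastid sigma factor, imported plastid polymerase, nuclear-encoded plastid ribosomal protein or Rubisco small subunit from the lists used, so these partners are not analysed here.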

How the data were processed

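RNA of 4 samples was measured on 1-colour oligonucleotide arrays. The authors deposited log2 values. Per the submitters' processing notes they used RMA, and its version is not given in the sources used here. This method corrects background, equalises the distributions of the arrays and summarises probes, which can compress bright signals. In the comparison of GR24 with mock without pairing, the median residual SD was 0.137 over all tested probe sets. It was 0.161 once those with signals under the 25th percentile were left out, so dim probe sets tended to vary less here. Of 22810 probe sets 64 controls were left out and 22746 tested, with no filter on dim signals. Genes were named through a platform table and the RefSeq gene table of TAIR10.1, which listed 13513 tested probe sets with 1 gene, 503 with several and left 8730 unnamed. Mitochondrial probe sets were matched by symbol. No plastid sequence was used here.

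GR24 was compared with mock by two-sided tests without pairing in limma 3.58.1 under R 4.3.3. P-values were adjusted by the Benjamini-Hochberg method across the 22746 probe sets, with a threshold of 0.05. The replicate number as a block was an alternative. The series description gives 2 independent analyses with their own seedlings, which was read as the pairing, and deviations of same-numbered arrays from their group means correlated at 0.712. Replicate numbers were compared with treatment as a block and a prior variance fitted by maximum likelihood (7.62 prior degrees of freedom, prior SD 0.107). No label separates the cultures within a preparation, so p-values cover only the spread among these arrays, whose small number limits the precision.

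Named genes were, per functional group, those with the highest and lowest signal and difference in each replicate number and the largest shift, those 0.25 or more from mock on the same side in both, those past the threshold in a fit, and rbcL and psbA. Other genes named are members of the listed transcription units. Members, lists and transcription units were chosen with earlier results of these data known.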

Additional observations from a re-analysis of the deposited data

Results flagged for a closer look

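For 5 plastid-encoded genes GR24 lay 0.5 or more above mock in replicate 1 and 0.5 or more below it in replicate 2. The share of all probe sets that met this rule is not given here, so the count has no background. The difference in replicate 2 less that in replicate 1 was -1.50 for psaA, -1.48 for ndhH, -1.42 for rpl16, -1.37 for petG and -1.28 for rpoB. The difference between the replicate numbers was not tested, since each rests on 1 array per treatment. For each of these 5 genes mock replicate 1 was the lowest of the 4 arrays and mock replicate 2 the highest. The rule that chose them partly fixes this order. It leaves only GR24 replicate 2 as another possible lowest array and GR24 replicate 1 as another possible highest.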

How the results depend on the processing

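Between GR24 and mock 0 genes passed in limma with the replicate block under both priors, so the block changed no call, and 0 when it was combined with repeated quantile normalization or an offset of 16, both chosen after seeing the data. The fits without the block gave 0 under each alternative too, but the unpaired fit of all arrays passed 0 of 22746 probe sets, so those counts say nothing about these genes. With an array left out, the lone array was assumed to vary like the other group. The median of that comparison ran from -0.17 to 0.07 when single arrays were left out without pairing. The difference between the replicate numbers thus entered it too. Between replicate numbers, limma's default prior raised the count from 6 to 12, where only the prior differs (18.3 against 7.62 degrees of freedom). The genes added were psaC, ndhH, petG, rpl36 and rpl14, higher in replicate 2, and rps14, lower. Under the other alternatives 5 to 7 passed. psbB was lost with repeated quantile normalization, the offset and trend and robust moderation, and the cause was not tested. With trend and robust moderation 6 genes still passed. At least 1 gene outside the 6 of the main fit thus came in there, and it is not named here. The median of that comparison was -0.20 without either mock array and 0.25 without either GR24 array. The median GR24 minus mock difference lay between 0.14 and 0.17 in replicate 1 and was -0.27 in replicate 2 under each alternative tried, and 41 to 47 genes had the order above then below mock. Averaging probe sets of a gene changed nothing, since each gene had 1. No detection calls were used, so dim probe sets such as ndhF, atpI and rpoB have no stated background.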

Other observations

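Probe sets shared by the copies of genes that lie more than once on the plastid genome were not among the 69 genes. Both rps12 probe sets lay above mock in replicate 1, by 0.75 and 0.84, and within 0.01 of mock in replicate 2. The ribosomal protein gene rps7 was above mock in both, by 0.57 and 0.15. rpl23 differed by 0.07 and -0.61 and rpl2 by -0.01 and -0.28, on the same side as their neighbours of the ribosomal unit in replicate 2. ycf1, which encodes a component linked to protein import, differed by 0.29 and -0.57. The ndhB probe set lay below mock in both, with differences of -0.39 and -0.32, with dim values between 4.13 and 4.52, and ycf2 differed by -0.08 and -0.04.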
